A study of Danio rerio with 10 samples.

Results

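Cyclins, cyclin-dependent kinases (CDKs) and genes of the mitotic apparatus were examined in kidney marrow, where adult zebrafish make their blood. Members were chosen by the gene symbol in the array annotation: a cyclin letter from A to L followed by a digit, or a name starting with cdk, aurk, plk, kif, cenp, bub, mad2, ndc80, nuf2, spc2 or anln. This gave 68 genes of the 8793 genes with a single symbol. For each gene the probe set with the highest mean over the 10 arrays was used. RNA of 5 zebrafish overexpressing the human CREB gene and of 5 control zebrafish was hybridised to an array each. CREB is a transcription factor that responds to cyclic AMP. The study was about leukaemia and blocked myeloid differentiation in fish with raised CREB. Labels name no promoter for the human gene and no strain, age, sex or disease state of any fish, so what limits the model on those points is unknown here.

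Progress through the cell cycle depends on CDKs, which act only when bound to a cyclin and are restrained by CDK inhibitors. Cyclins D and E with their kinases promote entry into DNA replication, and cyclins A and B with Cdk1 drive the cell into mitosis. In mitosis, Aurora and Polo-like kinases, kinetochore proteins and motor kinesins attach and separate the chromosomes, and the spindle checkpoint delays separation until all are attached. Dividing precursors make up a large part of blood-forming tissue, and fish oocytes store mRNAs of cyclins and mitotic kinases for the divisions of the early embryo. Many other proteins with cdk, cyclin or kinesin names act in transcription or in transport along microtubules.

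By these roles the members were placed in 10 groups. Of these, 5 groups with 39 genes hold the cyclins, kinases, kinetochore proteins and motors of division, called division genes here. The other 5 groups, with 29 genes, hold CDK inhibitors, other cyclins, other CDKs, other kinesins and further genes with names starting with cdk.

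Values are log2 signals, so a difference of 1 is a change of 2-fold, and all differences are CREB minus control unless another direction is given. Array medians over the 15502 probe sets tested lay between 5.72 and 5.93. The median difference over all probe sets was 0.18. The tissue carried its defining blood cell transcripts: the haemoglobin gene hbaa1 averaged 14.5 in both groups, and the neutrophil lysozyme gene lyz averaged 13.5 in CREB fish and 14.1 in control fish.

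Transcripts of other tissues differed between arrays. Of 37 measured gonad and egg genes, 34 had a higher mean on control arrays 3, 4 and 5 than on control arrays 1 and 2, and the meiotic gene sycp3 was near the level of tag control probe sets throughout. The mean level of these genes was 9.13, 7.69 and 9.01 on control arrays 3, 4 and 5 and 6.09 and 5.33 on control arrays 1 and 2. Among CREB arrays it was 5.60, 5.32, 6.18, 7.32 and 5.64 on arrays 1 to 5. Control arrays 3, 4 and 5 and CREB array 4 were thus the 4 arrays with the most egg transcripts, and the zona pellucida gene zp3a.1, which encodes an egg coat protein, was at 12.66, 10.67, 12.50 and 10.31 on them. On the other 6 arrays zp3a.1 lay between 5.08 and 8.47. Levels of 29 skeletal muscle genes were between 6.88 and 8.97 in CREB fish and 5.16 and 5.45 in control fish. Those of 25 kidney tubule and glomerulus genes were between 7.63 and 8.55 against 7.10 and 7.60, and those of 15 neutrophil genes between 9.27 and 10.42 against 10.06 and 11.12. For 18 exocrine pancreas genes, control arrays 4 and 5 held levels of 9.49 and 10.63, with 5.77 to 6.98 elsewhere. Levels overlapped between the groups for 16 erythroid genes (7.94 to 9.31 in CREB fish, 8.51 to 9.12 in control fish), 11 lymphocyte genes (5.85 to 5.99 against 5.56 to 6.23) and 16 progenitor genes (6.63 to 7.09 against 6.58 to 7.14). In whole tissue, fewer cells of a type and less RNA per cell cannot be told apart. The part of the muscle, kidney, pancreas and neutrophil transcripts in the results on members was not tested.

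Among division genes, falls in CREB fish outnumbered rises when all arrays were used. Of all 68 members, 13 fell, 7 rose and 48 did neither in limma's test (adjusted p under 0.05 over all probe sets). Of all probe sets 6.79% were lower and 23.5% higher in the same test, against 19.1% and 10.3% of the members. The median difference of the members was -0.31. Among the 39 division genes 12 fell and 2 rose, with a median of -0.94, and among the other 29 genes 1 fell and 5 rose, with a median of -0.12. In 9 members every CREB array lay below every control array, as did 4.20% of all probe sets, and in 7 every CREB array lay above, as did 19.6%.

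These counts depended on which control arrays were used. The fit without control arrays 3, 4 and 5 set 5 CREB arrays against 2 control arrays. No member was then lower in limma's test and plk3 alone was higher, against 1.46% and 0.922% of all probe sets. In that fit 21 of the 68 members had an unadjusted p under 0.05 (limma), as had 4459 of the 15502 probe sets, a similar share. Without control arrays 1 and 2, 27 members were lower and 5 higher, against 7.97% and 16.5% of all probe sets. With the gonad and egg level of each array as a covariate, 7 were lower and 5 higher, against 4.59% and 9.39%. Without control arrays 3, 4 and 5 and also without CREB array 4, an alternative added after seeing the data, 7 were lower and 1 higher, against 3.26% and 2.89%. The 7 were anln, cdk2, ndc80, nuf2, cenpk, mad2l1 and ccng2. Among those 6 arrays, the 4 CREB arrays lay below both control arrays in 21 members, as in 16.0% of all probe sets, and above both in 13, as in 35.3%. The median difference of the division genes was -0.21 against control arrays 1 and 2 and -1.33 against control arrays 3, 4 and 5. That of the other 29 genes was -0.06 and -0.07. With CREB array 4 left out as well, the medians against control arrays 1 and 2 were -0.39 for the division genes and -0.004 for the other 29. The median over all probe sets was then 0.18. In 16 of the 39 division genes the other 4 CREB arrays lay below both control arrays, and in 5 above both.

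**Figure D1:**
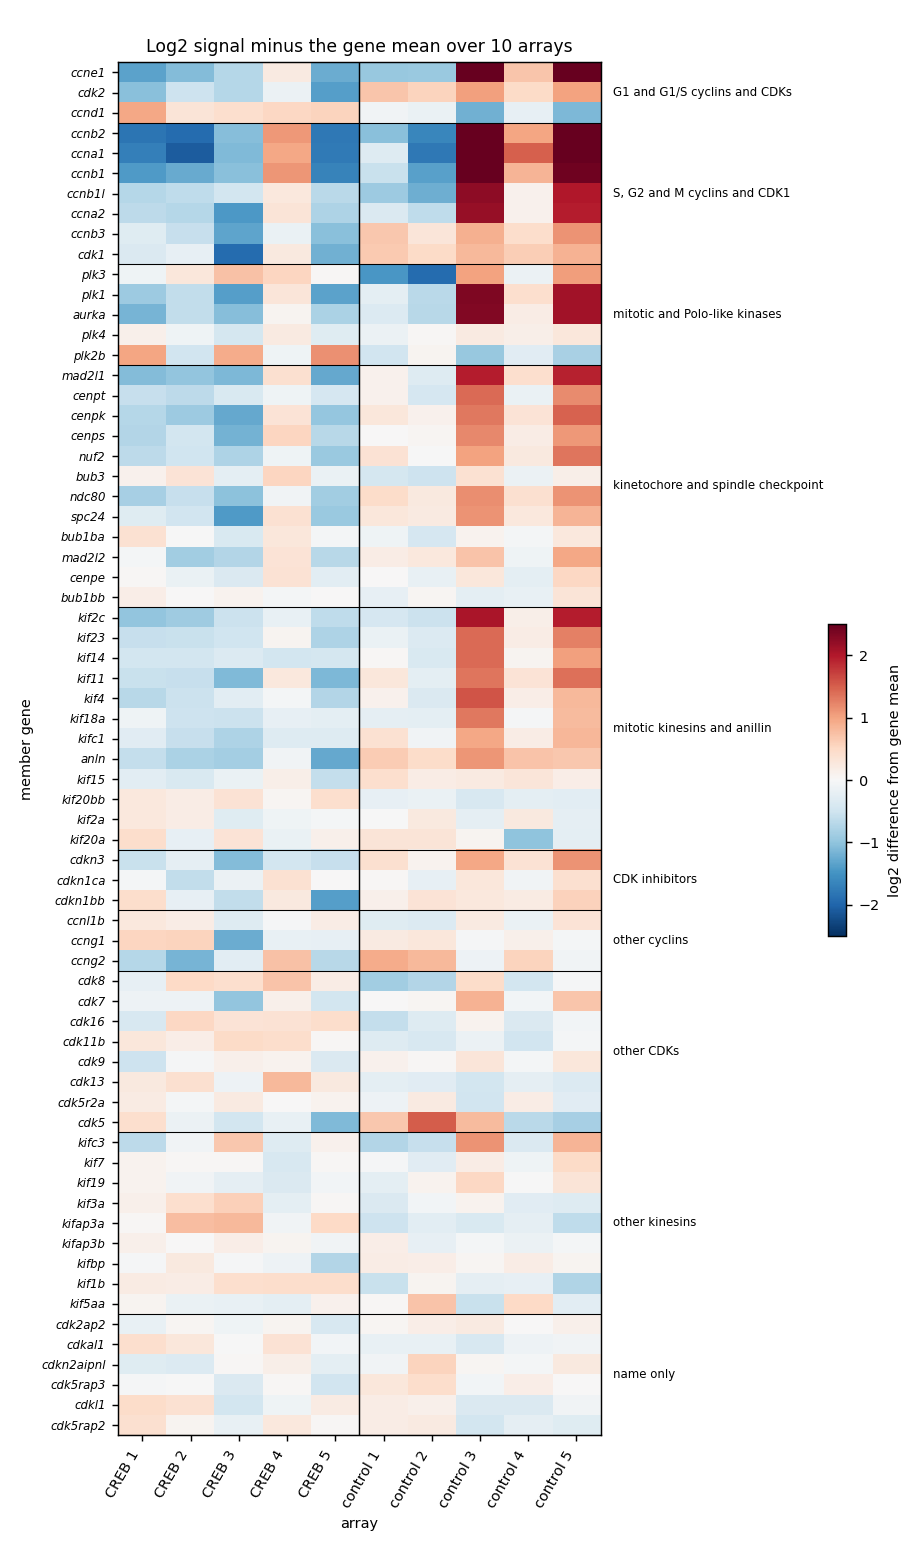
Heat map of the 68 members (rows, by role group) on the 10 arrays (columns), as log2 signal minus the gene's own mean over the 10 arrays and colours capped at the ends of the scale bar. The darkest red cells lie on control arrays 3 and 5, in ccne1, most S, G2 and M cyclins, plk1, aurka, mad2l1 and kif2c, while cdk2, anln and ccnb3 are red on all 5 control arrays and blue on all CREB arrays.

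Different patterns over the arrays were seen among the division genes. In 8 of the 39 (20.5%), every CREB array lay below every control array, as did 4.20% of all probe sets. In 14 division genes the 4 egg-rich arrays were the 4 highest of the 10, and in none of the other 29 members; over all probe sets the share was 3.43%. The 14 were ccne1, ccna1, ccna2, ccnb1, ccnb1l, ccnb2, plk1, plk4, aurka, mad2l1, cenpk, cenps, kif23 and kif2c. Of them, only mad2l1 and cenpk were among the 13 members that fell.

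Among G1 and G1/S cyclins and CDKs, cdk2 fell, ccnd1 rose and ccne1 did not pass. The kinase gene cdk2, whose product acts with cyclins E and A at the start of replication, was at 7.01, 7.55, 7.35, 7.91 and 6.68 on CREB arrays 1 to 5 and at 8.76, 8.61, 9.09, 8.54 and 9.07 on control arrays 1 to 5. All CREB arrays were below all control arrays, and control arrays 1 and 2 were within the range of control arrays 3, 4 and 5. The fall was 2.85-fold (log2 difference -1.51 ± 0.23 SE; limma, adjusted p = 0.00357). Against control arrays 1 and 2 alone the difference was -1.38, which did not pass (limma, adjusted p = 0.0659). Without CREB array 4 as well, it was -1.54 and passed (limma, adjusted p = 0.0320). With the egg level as a covariate it was -1.28 (limma, adjusted p = 0.0133). It passed with any single array left out (limma, adjusted p up to 0.0115).

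The cyclin D1 gene ccnd1, which links growth signals to cell cycle entry, moved the other way. It was at 9.73, 9.08, 9.17, 9.28 and 9.31 on the CREB arrays and at 8.67, 8.60, 7.55, 8.55 and 7.62 on the control arrays, again with no overlap. It rose 2.16-fold (log2 difference 1.11 ± 0.25 SE; limma, adjusted p = 0.0132), and its other probe set rose by 0.75 ± 0.24 (limma, adjusted p = 0.0392). Control arrays 3 and 5, with the most egg transcripts, held its lowest values. Against control arrays 1 and 2 the difference was 0.68 and did not pass (limma, adjusted p = 0.0978). With the egg level as a covariate it was 0.76 and passed (limma, adjusted p = 0.0454).

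The cyclin E1 gene ccne1, the partner of Cdk2, followed the egg-rich arrays. It was at 9.22, 7.21 and 9.17 on control arrays 3, 4 and 5, at 5.58 and 5.59 on control arrays 1 and 2, and at 5.19, 5.44, 5.80, 6.76 and 5.29 on the CREB arrays. Control arrays 1 and 2 lay inside the CREB range. With all arrays the log2 difference was -1.66 ± 0.76 and missed the threshold (SE; limma, adjusted p = 0.118). It was -2.84 against control arrays 3, 4 and 5 and 0.11 against control arrays 1 and 2, or -0.15 without CREB array 4 as well.

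Among the 7 S, G2 and M cyclins and CDK1, ccnb3 and cdk1 fell (28.6%, against 6.79% of all probe sets) and the other 5 did not pass. All 7 were lower in the fit without control arrays 1 and 2, where 7.97% of all probe sets were lower. None passed in the fit without control arrays 3, 4 and 5, where 1.46% of all probe sets were lower and 0.922% higher. The group's median difference was -2.06 in the former fit and -0.09 in the latter. Without CREB array 4 as well, the median was -0.39 and again none passed.

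The gene ccnb3, which encodes a cyclin of late mitosis and of meiosis in vertebrates, was at 6.44, 6.16, 5.41, 6.56 and 5.68 on the CREB arrays and at 7.40, 7.03, 7.63, 7.18 and 7.85 on the control arrays. There was no overlap, and the fall was 2.58-fold (log2 difference -1.37 ± 0.25 SE; limma, adjusted p = 0.00623). Its 3 other probe sets also passed, with falls of 0.96, 0.81 and 1.16 (log2; limma, adjusted p = 0.00960, 0.00876 and 0.00487). The probe sets with falls of 0.81 and 1.16 had means of 3.51 and 3.24 in CREB fish and 4.32 and 4.40 in control fish. Tag control probe sets averaged 4.33 and 4.08, so both signals were near or below background. Against control arrays 1 and 2 the difference was -1.17 (limma, adjusted p = 0.0979). Without CREB array 4 as well, it was -1.29 and also did not pass (limma, adjusted p = 0.0588).

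The gene cdk1 encodes the kinase that starts mitosis. It was at 8.11, 8.27, 6.55, 8.71 and 7.26 on the CREB arrays and at 9.11, 8.94, 9.28, 9.07 and 9.34 on the control arrays. The control arrays lay close together, with CREB arrays 3 and 5 farthest below them, and the groups did not overlap. The fall was 2.59-fold (log2 difference -1.37 ± 0.36 SE; limma, adjusted p = 0.0202), and with the egg level as a covariate the difference of -1.20 did not pass (limma, adjusted p = 0.0786).

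The cyclin B genes ccnb1 and ccnb2, whose products activate Cdk1, showed a different pattern over the arrays from that of cdk1. The gene ccnb1 was at 12.18, 10.15 and 11.73 on control arrays 3, 4 and 5, at 8.75 and 7.93 on control arrays 1 and 2, and at 7.89, 8.04, 8.25, 10.41 and 7.62 on the CREB arrays. CREB array 4 was above control array 4, and the other CREB arrays were near control arrays 1 and 2. With all arrays the log2 difference was -1.70 ± 0.86 and missed the threshold (SE; limma, adjusted p = 0.146), and it was 0.10 against control arrays 1 and 2. Without CREB array 4 as well, it was -0.39 (limma, adjusted p = 0.351). For ccnb2 the values were 11.21, 8.41 and 10.84 on control arrays 3, 4 and 5, 6.37 and 5.79 on control arrays 1 and 2, and 5.58, 5.49, 6.34, 8.50 and 5.64 on the CREB arrays. Its difference was -3.84 against control arrays 3, 4 and 5, the lowest of the 68 members, and 0.23 against control arrays 1 and 2. Without CREB array 4 as well, that last difference was -0.31 (limma, adjusted p = 0.465).

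The cyclin A genes shared that pattern. The gene ccna1, encoding the cyclin A of germ cells in mammals, was at 10.81, 9.09 and 10.68 on control arrays 3, 4 and 5, while control arrays 1 and 2 were at 7.28 and 5.80. CREB array 4 was at 8.55 and the other CREB arrays lay between 5.51 and 6.48. The gene ccna2, encoding the cyclin A of somatic cells, was at 10.23, 8.18 and 10.02 on control arrays 3, 4 and 5 and at 7.70 and 7.42 on control arrays 1 and 2. On the CREB arrays it was at 7.40, 7.35, 6.63, 8.38 and 7.30. Neither passed (log2 differences -2.28 ± 0.99 and -1.29 ± 0.58 SE; limma, adjusted p = 0.101 and 0.112), and against control arrays 1 and 2 the differences were -0.09 and -0.15. Without CREB array 4 as well, they were -0.62 and -0.39 and did not pass (limma, adjusted p = 0.350 and 0.308). For ccna2 the remaining CREB arrays then lay below both control arrays. The cyclin B1-like gene ccnb1l had -1.89 against control arrays 3, 4 and 5 and 0.62 against control arrays 1 and 2, or 0.44 without CREB array 4 as well.

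**Figure D2:**
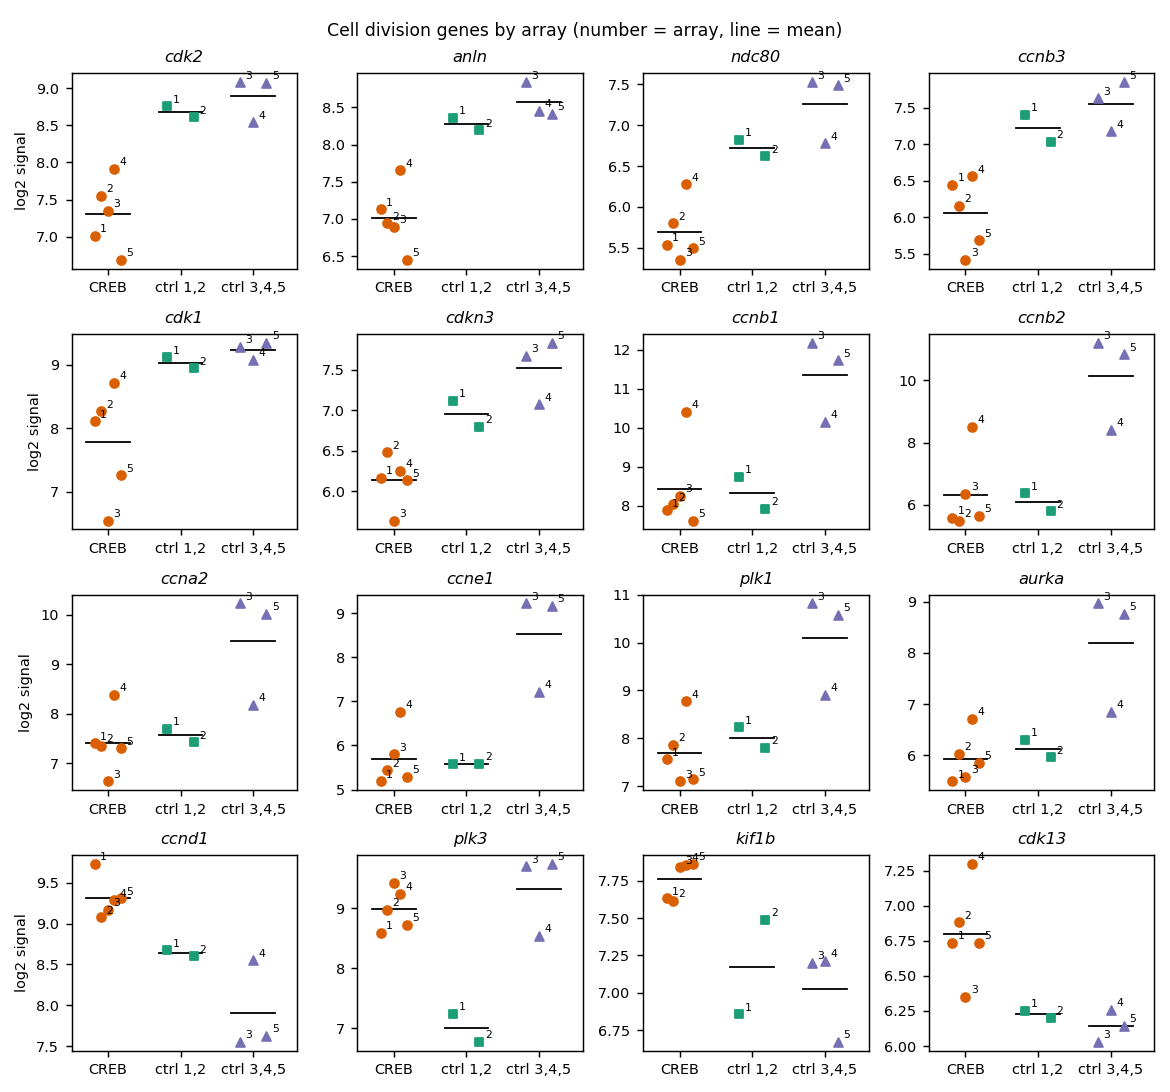
Log2 signal (vertical axes, scaled to each gene) of 16 members in CREB fish, control arrays 1 and 2 and control arrays 3, 4 and 5, where each point is an array, its number is beside it and lines are means. In cdk2, anln, ndc80, ccnb3, cdk1 and cdkn3 both sets of control arrays lie above all CREB arrays, whereas in ccnb1, ccnb2, ccna2, ccne1, plk1 and aurka control arrays 1 and 2 lie inside or beside the CREB range.

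None of the 5 mitotic and Polo-like kinase genes passed the test with all arrays. The gene plk1, encoding the kinase that promotes mitotic entry and spindle assembly, was at 7.56, 7.87, 7.11, 8.78 and 7.15 on the CREB arrays, at 8.23 and 7.80 on control arrays 1 and 2, and at 10.82, 8.90 and 10.58 on control arrays 3, 4 and 5. The gene aurka, encoding the Aurora kinase of spindle poles, was at 5.50, 6.03, 5.59, 6.72 and 5.86 on the CREB arrays, at 6.30 and 5.96 on control arrays 1 and 2, and at 8.96, 6.85 and 8.76 on control arrays 3, 4 and 5. In both genes CREB array 4 was the highest CREB array and was below control array 4. Their differences were -1.57 ± 0.61 and -1.43 ± 0.59 with all arrays (SE; limma, adjusted p = 0.0732 and 0.0891) and -0.32 and -0.19 against control arrays 1 and 2. Without CREB array 4 as well, they were -0.60 and -0.39 (limma, adjusted p = 0.173 and 0.233). The centriole duplication gene plk4 had a difference of -0.21 ± 0.15 (SE; limma, adjusted p = 0.304).

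The remaining Polo-like kinases, which in mammals are induced by stress and growth factors, had higher means in CREB fish. The gene plk3 was at 8.59, 8.97, 9.42, 9.23 and 8.72 on the CREB arrays, at 7.24 and 6.77 on control arrays 1 and 2, and at 9.70, 8.54 and 9.73 on control arrays 3, 4 and 5. All CREB arrays were above control arrays 1 and 2 and inside the range of control arrays 3, 4 and 5. The difference was 0.59 ± 0.56 with all arrays (SE; limma, adjusted p = 0.428), 1.98 without control arrays 3, 4 and 5 (limma, adjusted p = 0.0197) and 1.6 with the egg level as a covariate (limma, adjusted p = 0.00837). The gene plk2b was at 7.95, 6.49, 7.90, 6.86 and 8.11 on the CREB arrays and at 6.48, 7.03, 6.02, 6.68 and 6.15 on the control arrays, and missed the threshold (log2 difference 0.99 ± 0.34 SE; limma, adjusted p = 0.0507).

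Of 12 genes grouped under kinetochore and spindle checkpoint, 5 fell (41.7%, against 6.79% of all probe sets) and 7 did not pass. The genes ndc80, nuf2 and spc24 encode subunits of the NDC80 complex, which ties kinetochores to microtubules, and all 3 fell. The gene ndc80 was at 5.54, 5.80, 5.35, 6.28 and 5.49 on the CREB arrays and at 6.82, 6.62, 7.53, 6.78 and 7.49 on the control arrays. No arrays overlapped, and the fall was 2.56-fold (log2 difference -1.35 ± 0.24 SE; limma, adjusted p = 0.00559). It passed with the egg level as a covariate, at -1.01 (limma, adjusted p = 0.0135), and was at -1.03 without control arrays 3, 4 and 5 (limma, adjusted p = 0.0778). Without CREB array 4 as well, the difference was -1.18 and passed (limma, adjusted p = 0.0256).

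The gene nuf2 was at 4.60, 4.77, 4.48, 5.15 and 4.34 on the CREB arrays and at 5.62, 5.25, 6.27, 5.51 and 6.60 on the control arrays, giving a log2 difference of -1.18 ± 0.27, a fall that passed (SE; limma, adjusted p = 0.0123). Tag control probe sets, which match no zebrafish transcript by design, averaged 4.33 in CREB fish, close to the lowest nuf2 values there. Whether background limits the size of the nuf2 fall was not tested. The gene spc24 overlapped between groups, at 4.96 to 6.76 on the CREB arrays and 6.61 to 7.50 on the control arrays, and fell by 1.1 ± 0.32 (SE; limma, adjusted p = 0.0301). That call was lost without CREB array 3 or 5 or control array 3 or 5 (limma, adjusted p up to 0.0684). Against control arrays 3, 4 and 5 the spc24 difference was -1.29, and against control arrays 1 and 2 it was -0.80.

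The checkpoint gene mad2l1 and the centromere gene cenpk fell and also followed the egg-rich arrays. The gene mad2l1, whose product holds back chromosome separation, was at 7.85, 7.94, 7.80, 9.33 and 7.66 on the CREB arrays, at 9.04 and 8.61 on control arrays 1 and 2, and at 10.89, 9.35 and 10.86 on control arrays 3, 4 and 5. Apart from array 4, the CREB arrays were below both control arrays 1 and 2. Its fall of 1.64 ± 0.51 (SE; limma, adjusted p = 0.0359) was lost without CREB array 1, 2, 3 or 5 or control array 3, 4 or 5 (limma, adjusted p up to 0.0786), and also under quantile and cyclic loess scaling (limma, adjusted p = 0.0516 and 0.0633). Among the arrays with fewer egg transcripts, CREB arrays 1, 2, 3 and 5 against control arrays 1 and 2, the difference was -1.01 (limma, adjusted p = 0.0343). These arrays were not free of egg transcripts, with zp3a.1 at 8.47 on control array 1 and 8.12 on CREB array 3. The gene cenpk was at 4.92, 4.73, 4.35, 5.98 and 4.67 on the CREB arrays and at 5.92, 5.73, 6.94, 5.97 and 7.11 on the control arrays, and fell by 1.4 ± 0.36 (SE; limma, adjusted p = 0.0195).

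The other genes of this group, placed in it by their symbols, did not pass. Differences were -0.80 ± 0.28 for mad2l2, -1.01 ± 0.35 for cenps and -0.85 ± 0.35 for cenpt (SE; limma, adjusted p = 0.0519, 0.0528 and 0.0851). The checkpoint genes bub3, bub1ba and bub1bb and the kinetochore motor gene cenpe had differences between -0.15 and 0.23 (limma, adjusted p between 0.412 and 0.708), and bub1bb was below the mean of tag control probe sets in both groups.

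Of the 12 genes for mitotic kinesins and anillin, 4 fell, 1 rose and 7 did not pass. Thus 33.3% were lower and 8.33% higher, against 6.79% and 23.5% of all probe sets. The gene anln, encoding the scaffold of the cytokinetic ring, was at 7.13, 6.94, 6.89, 7.65 and 6.45 on the CREB arrays and at 8.36, 8.19, 8.84, 8.45 and 8.41 on the control arrays. The groups did not overlap, and control arrays 3, 4 and 5 averaged only 0.29 above control arrays 1 and 2. It fell 2.71-fold (log2 difference -1.44 ± 0.21 SE; limma, adjusted p = 0.00332), its other probe set fell by 0.72 ± 0.21 (limma, adjusted p = 0.0273), and the difference was -1.26 without control arrays 3, 4 and 5 (limma, adjusted p = 0.0684). Without CREB array 4 as well, the difference was -1.42 and passed (limma, adjusted p = 0.0267).

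The spindle motor gene kifc1 was between 4.88 and 5.36 on the CREB arrays and between 5.57 and 6.62 on the control arrays. It fell by 0.91 ± 0.21 (SE; limma, adjusted p = 0.0128). Its difference was -1.12 against control arrays 3, 4 and 5 and -0.60 against control arrays 1 and 2 (limma, adjusted p = 0.122 for the latter). With the egg level as a covariate it was -0.64 and passed (limma, adjusted p = 0.0461). The spindle kinesin gene kif15 was between 5.45 and 6.19 against 6.21 and 6.46 and fell by 0.51 ± 0.14 (SE; limma, adjusted p = 0.0231), which no longer passed without control array 1 or 4 (limma, adjusted p up to 0.0518), and its other probe set had a difference of 0.02. The gene kif11, encoding the motor that separates spindle poles, was at 7.16, 7.14, 6.61, 7.98 and 6.59 on the CREB arrays and at 8.01, 7.48, 9.06, 8.07 and 9.11 on the control arrays. It fell by 1.25 ± 0.37 (SE; limma, adjusted p = 0.0305), which no longer passed without CREB array 1, 3 or 5 or control array 3 or 5 (limma, adjusted p up to 0.0697). Against control arrays 3, 4 and 5 the kif11 difference was -1.65, and against control arrays 1 and 2 it was -0.65 (limma, adjusted p = 0.285). With the egg level as a covariate it was -0.66 and did not pass (limma, adjusted p = 0.0929).

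The kinesin genes kif14, kif4, kif23, kif2c and kif18a, which act in chromosome alignment or cytokinesis, were highest on control arrays 3 and 5 and did not pass. Their differences were between -1.29 and -0.65 with all arrays (limma, adjusted p between 0.0568 and 0.116) and between -0.33 and -0.09 against control arrays 1 and 2. Without CREB array 4 as well, they were between -0.43 and -0.12. Other probe sets of kif2c and kif4 had differences between 0.03 and 0.27. The gene kif20bb was between 4.99 and 5.35 on the CREB arrays and 4.54 and 4.78 on the control arrays and rose by 0.51 ± 0.10 (SE; limma, adjusted p = 0.00898). That signal is low: tag control probe sets averaged 4.08 in control fish and 4.33 in CREB fish. The call was lost under quantile and cyclic loess scaling (differences 0.29 and 0.23; limma, adjusted p = 0.0644 and 0.0950), and the other probe set did not pass (difference 0.22). The gene kif20a was between 11.55 and 12.98 on its brighter probe set, with a difference of 0.21 ± 0.26 (SE; limma, adjusted p = 0.538). Its other probe set, between 4.73 and 6.36, had a difference of -0.35. Whether the brighter probe set measures kif20a was not checked against its sequence, so its value is uncertain as a measure of that gene. The gene kif2a, whose product also acts on microtubules outside mitosis, had a difference of -0.01 ± 0.15 (SE; limma, adjusted p = 0.959).

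**Figure D3:**
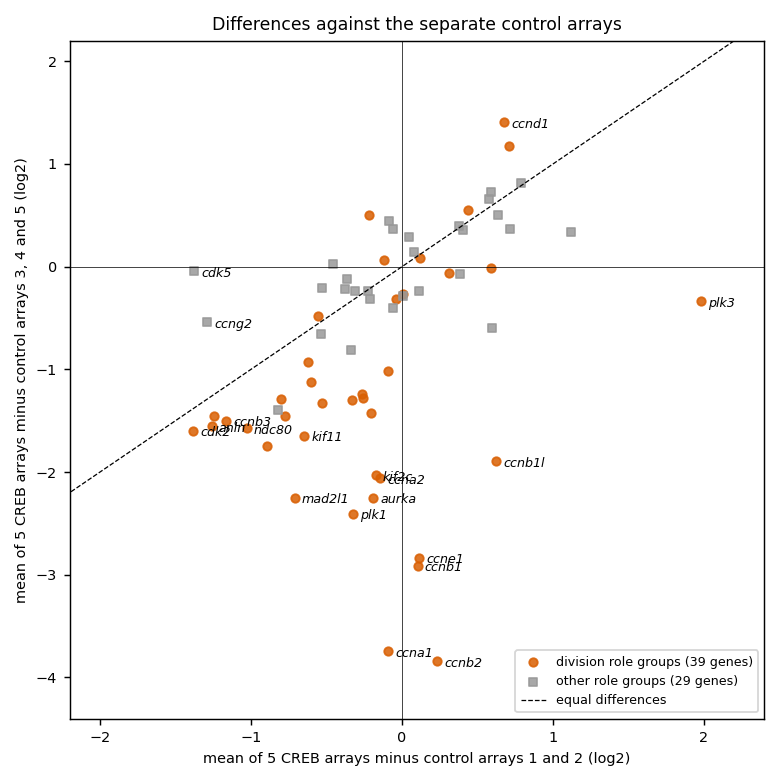
Each point is a member, with the mean of the 5 CREB arrays minus control arrays 1 and 2 on the horizontal axis and minus control arrays 3, 4 and 5 on the vertical axis (log2). Points for cdk2, anln and ccnb3 lie near the dashed line of equal differences, and ndc80 lies farther below it, at -1.03 and -1.57. Those for ccnb1, ccnb2, ccna1 and ccne1 lie near 0 on the horizontal axis and below -2.8 on the vertical axis. The point for plk3 lies at 1.98 on the horizontal axis.

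Of 3 genes named as CDK inhibitors only cdkn3 fell (33.3%, against 6.79% of all probe sets). Its product is a phosphatase that acts on CDKs, and its mRNA rises in dividing mammalian cells. It was at 6.16, 6.48, 5.64, 6.25 and 6.13 on the CREB arrays and at 7.12, 6.80, 7.67, 7.07 and 7.84 on the control arrays, without overlap. It fell 2.24-fold (log2 difference -1.17 ± 0.23 SE; limma, adjusted p = 0.00785). The difference was -1.39 against control arrays 3, 4 and 5 and -0.82 against control arrays 1 and 2 (limma, adjusted p = 0.0970 for the latter). With the egg level as a covariate it was -0.91 and passed (limma, adjusted p = 0.0299). The direct inhibitor gene cdkn1bb was at 8.11, 7.47, 7.06, 7.92 and 6.29 on the CREB arrays and between 7.80 and 8.25 on the control arrays. It did not pass (log2 difference -0.61 ± 0.31 SE; limma, adjusted p = 0.147), whereas its dimmer probe set had a log2 difference of -0.76 ± 0.17 and passed (SE; limma, adjusted p = 0.0126). The inhibitor gene cdkn1ca had a difference of -0.17 ± 0.19 (SE; limma, adjusted p = 0.506).

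No cyclin outside the division groups passed. The cyclin G2 gene ccng2, which in mammals is linked to cell cycle exit, was at 8.34, 7.88, 8.78, 9.79 and 8.36 on the CREB arrays and at 9.97, 9.87, 8.93, 9.62 and 8.97 on the control arrays. Its highest values were on control arrays 1 and 2. The difference was -0.84 ± 0.36 (SE; limma, adjusted p = 0.0934) with all arrays. It was -1.58 among the arrays with fewer egg transcripts (limma, adjusted p = 0.0292), and the other probe set of ccng2 had a difference of 0.01. The p53 target gene ccng1 and the splicing cyclin gene ccnl1b did not pass, with log2 differences of -0.22 ± 0.31 for ccng1 and 0.11 ± 0.17 for ccnl1b (SE; limma, adjusted p = 0.597 and 0.644).

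Of 8 other CDK genes, cdk11b and cdk13, whose products act in transcription and splicing, rose. That share of 25% was near the 23.5% of all probe sets that were higher. The gene cdk13 was at 6.74, 6.88, 6.35, 7.30 and 6.74 on the CREB arrays and between 6.03 and 6.26 on the control arrays, and rose by 0.62 ± 0.16 (SE; limma, adjusted p = 0.0191). Its 2 other probe sets had differences of 0.42 and 0.52 and did not pass. The gene cdk11b was between 6.82 and 7.28 on the CREB arrays and 6.32 and 6.75 on the control arrays and rose by 0.55 ± 0.13 (SE; limma, adjusted p = 0.0140). Its other probe set had a difference of 0.07 ± 0.24 and did not pass (SE; limma, adjusted p = 0.836). The mediator kinase gene cdk8 had a difference of 0.65 ± 0.27 with all arrays (SE; limma, adjusted p = 0.0884) and 1.05 with the egg level as a covariate (limma, adjusted p = 0.0155). The genes cdk7 and cdk9, for kinases that phosphorylate RNA polymerase II, had differences of -0.62 ± 0.25 and -0.27 ± 0.15, and the neuronal kinase gene cdk5 and the CDK gene cdk16 had -0.58 ± 0.46 and 0.51 ± 0.20 (SE; limma, adjusted p between 0.0726 and 0.344 for the 4 genes). The CDK5 activator gene cdk5r2a was below the mean of tag control probe sets in both groups.

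Of 9 other kinesins and kinesin partners, kif1b and kifap3a rose. That share of 22.2% was near the 23.5% of all probe sets that were higher. The organelle transport gene kif1b was at 7.63, 7.62, 7.84, 7.86 and 7.86 on the CREB arrays and at 6.86, 7.49, 7.20, 7.21 and 6.67 on the control arrays, and rose by 0.67 ± 0.16 (SE; limma, adjusted p = 0.0137). Its other, dim probe set had a difference of 0.31 ± 0.12 and did not pass (SE; limma, adjusted p = 0.0648). The gene kifap3a, for a partner of the kinesin-2 motor, was between 6.53 and 7.42 on the CREB arrays and 5.99 and 6.39 on the control arrays, and rose by 0.81 ± 0.19 (SE; limma, adjusted p = 0.0148), and the motor gene kif3a had a difference of 0.37 ± 0.17 (SE; limma, adjusted p = 0.111). The gene kif19 had a difference of -0.27 ± 0.15 (SE; limma, adjusted p = 0.196), and the remaining 5 had differences between -0.26 and 0.11, among them kifap3b, which was below the mean of tag control probe sets in both groups. Of 6 further genes with names starting with cdk, 1 rose (16.7%, against 23.5% of all probe sets). It was cdkal1, which encodes a tRNA-modifying enzyme and rose by 0.39 ± 0.13 (SE; limma, adjusted p = 0.0419). That call did not hold when any one of the 5 control arrays, or CREB array 1, 2 or 4, was left out (limma, adjusted p up to 0.0873), nor under median or cyclic loess scaling (limma, adjusted p = 0.0695 and 0.0512). The other 5 did not pass and had differences between -0.33, for cdk5rap3, and 0.23, for cdk5rap2.

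Probe sets of a gene did not always move together. More than 1 probe set was available for 16 members. In 6 of these some probe sets passed and others did not, and in 5 the signs of the differences were mixed.

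**Figure D4:**
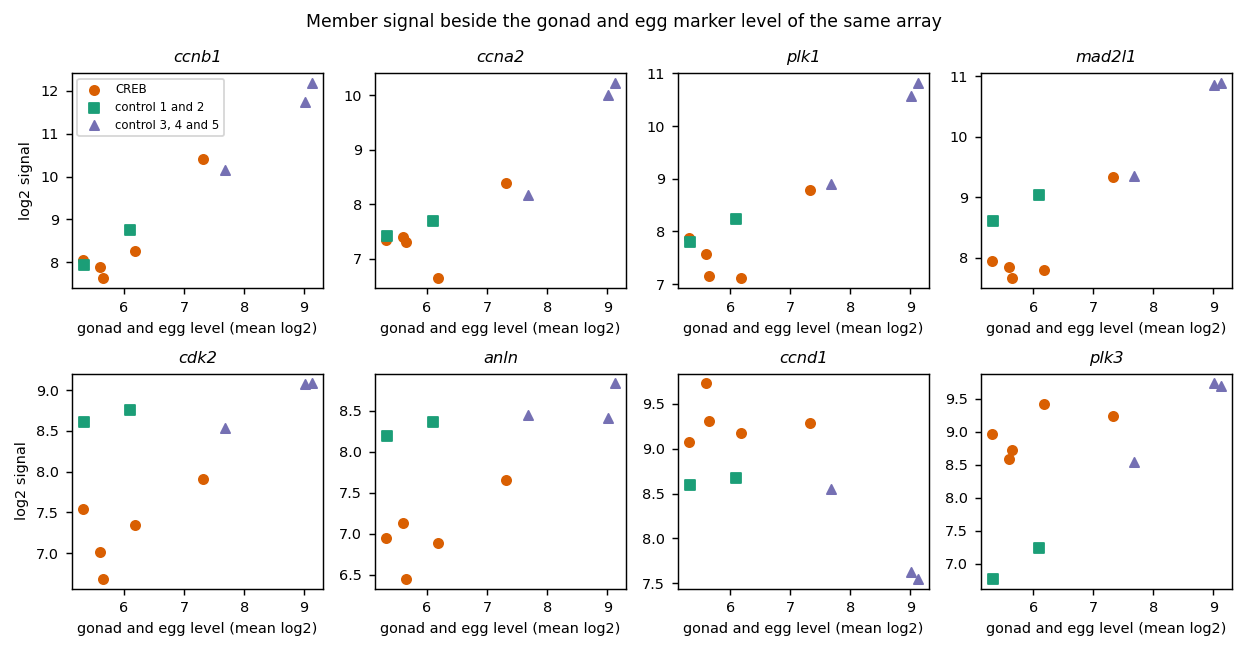
Log2 signal of 8 members (vertical axes) beside the mean log2 level of 37 gonad and egg genes on the same array (horizontal axes), each point an array. In ccnb1, ccna2 and plk1 the arrays with an egg level under 6.2 span 7.62 to 8.75, 6.63 to 7.70 and 7.11 to 8.23. The egg-rich arrays lie above them. In ccna2 the CREB arrays with an egg level under 6.2 lie below control arrays 1 and 2. In cdk2 and anln all CREB arrays lie below all control arrays, though no CREB array has an egg level above 7.32. In plk3 control arrays 1 and 2 lie below all others.

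The 147 other cell cycle genes examined were also more often lower than higher with all arrays. Of these 48 fell (32.7%, against 6.79% of all probe sets), 5 rose (3.40%, against 23.5%) and 94 did not pass, with a median difference of -0.55. The counts were 19 lower and 2 higher of 45 replication genes, and 9 and 1 of 41 genes listed as regulators of cell cycle transitions. They were 20 and 2 of 61 genes of mitotic chromosomes, spindle and cytokinesis. The list of 41 also holds ccnk and ccnt1, whose products act in transcription, and neither passed. Without control arrays 3, 4 and 5 none passed and the median was -0.23. In that fit 37 of the 147 had an unadjusted p under 0.05 (limma), as had 4459 of the 15502 probe sets, a slightly larger share. With the egg level as a covariate 21 were lower and 3 higher, where 4.59% and 9.39% of all probe sets were. In 26 of the 147 every CREB array lay below every control array (4.20% of all probe sets), and in 24 the 4 egg-rich arrays were the 4 highest (3.43%).

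The genes of these lists given next were among those with the smallest p, and their means on the sets of control arrays differed by 0.11 to 0.47. The gene fzr1a, for an activator of the anaphase-promoting complex in G1, fell by 0.79 ± 0.12, cks1b, for a small subunit bound to CDKs, by 1.33 ± 0.26 and the condensin gene ncapg by 1.17 ± 0.20 (SE; limma, adjusted p = 0.00403, 0.00805 and 0.00570). The single-strand DNA binding gene rpa2 fell by 0.76 ± 0.13 and the spindle gene nusap1 by 1.29 ± 0.24 (SE; limma, adjusted p = 0.00477 and 0.00693). For cks1b the values were 6.73, 6.87, 6.64, 7.85 and 6.29 on the CREB arrays and 8.33, 7.90, 8.31, 8.05 and 8.47 on the control arrays, with no overlap. The gene cdc20, whose product activates the anaphase-promoting complex in mitosis and which was named after its values were seen, was high on the egg-rich arrays, with control arrays 3, 4 and 5 at 9.78, 7.69 and 9.38 and CREB array 4 at 8.0. Control arrays 1 and 2 were at 7.22 and 6.43 and the other CREB arrays between 5.44 and 6.45, and cdc20 did not pass (log2 difference -1.71 ± 0.70 SE; limma, adjusted p = 0.0837). The 5 that rose were tk1, mcm6, anapc4, aspm and tuba8l4, by 0.34 to 0.72, with aspm and mcm6 close to the tag controls (means of 4.36 and 4.70 in CREB fish).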

How the data were processed

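Kidney marrow RNA of 5 CREB and 5 control fish was labelled with the 3' IVT Express kit and hybridised to Affymetrix zebrafish arrays, per the labels' protocols. The deposited table holds 15617 probe sets; the range of the deposited values is that of a log2 scale, and how the authors summarised and normalized probes is not stated in the labels. The 115 control probe sets were set aside, leaving 15502. Symbols came from the platform annotation: 10795 probe sets had 1, 135 had several and 4572 had none and are unnamed here. Of the 68 members, 67 matched the GRCz12tu RefSeq gene table by Entrez ID, and updating changed no name. Another 3 probe sets carry a member-like symbol among several and were not used.

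The comparison used lmFit and eBayes of limma 3.58.1 (R 4.3.3) with no filter or covariate; tests were two-sided, and p was adjusted by Benjamini-Hochberg over the 15502 probe sets with a threshold of 0.05. Figures were drawn with Python 3.11.15, pandas 2.3.3 and matplotlib 3.10.9. The fit was also run on simulated data with independent noise for each probe set. Such data hold no shared differences between arrays like those of the egg transcripts, so that run cannot judge their effect. The design text gives 5 animals per group, and that number of arrays limits the precision.

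The members, role groups and gene lists were chosen with earlier results of these data known. Named members were the 4 with the smallest p in each role group, all that rose, and a list of common cell cycle genes (47 in all); further members are named to complete their groups, after their values were seen. Alternatives were a replicate block, 3 scalings, a filter on dim probe sets, moderated-variance settings, array weights, leaving out arrays, the egg level as a covariate, and averaged probe sets.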

Additional observations from a re-analysis of the deposited data

Results flagged for a closer look

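Of 94 groups of 5 arrays examined for the 47 named members, 4 held an array far from the others of its group, where chance alone marks about 1 in 20 groups. On CREB array 4, ccnb1 was at 10.41 against 7.62 to 8.25 on the other CREB arrays, ccnb2 at 8.50 against 5.49 to 6.34, and mad2l1 at 9.33 against 7.66 to 7.94. CREB array 4 also had the highest gonad and egg level of the CREB arrays (7.32 against 5.32 to 6.18); the part of those transcripts in the 3 values was not tested. On CREB array 1, cdk16 was at 4.28 against 5.02 to 5.20.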

How the results depend on the processing

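With 13 lower and 7 higher members and a median of -0.31 with all arrays, the number lower was 6 with a replicate block (5 higher), 27 without control arrays 1 and 2, 0 without control arrays 3, 4 and 5 (1 higher), 7 with the egg level as a covariate, 6 without CREB arrays 3 and 5 (4 higher), and 7 without control arrays 3, 4 and 5 and CREB array 4 (1 higher). Array weights gave 11 higher. Leaving out 1 array gave 10 to 21 lower (21 without control array 2), 6 to 8 higher and medians of -0.38 to -0.27. The 48 other cell cycle genes that were lower became 27, 62, 0, 21, 18 and 13 under the same settings in that order, and 29 to 57 with 1 array left out (29 without CREB array 5, 30 without control array 5). The 3 scalings gave 15 to 17 lower and 5 to 6 higher members, and the median over all probe sets went from 0.18 to 0.04, 0.12 and -0.01 (quantile, median, cyclic loess). Over all probe sets, 1052 lower and 3640 higher became 1129 and 1723, 1250 and 2293, and 1364 and 1473 in that order. Without dim probe sets 55 members were left, 12 lower and 5 higher, with a median of -0.62. No named member that passed changed direction in any of these settings, and the cause of each change was not tested. Sample titles link same-numbered arrays only by the number, and whether they were processed together is unknown here. Their deviations correlated between -0.0232 and 0.268. With the block, in which each array shares a term with its namesake, 6 of the 13 falls and 5 of the 7 rises passed. The median of control arrays 3, 4 and 5 minus 1 and 2 over the members, 0.32, was 0.22 to 0.38 under the scalings. Fits with 2 control arrays rest on those arrays, and signals near 4.08 to 4.33 are at background.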
